A study of Mus musculus with 17 samples.

Results

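The mitochondrially encoded genes were taken as every row of the deposited expression table whose symbol starts with mt-. The rule found 37 of the 47643 symbols, namely 13 protein-coding genes, 2 rRNA genes and 22 tRNA genes. RNA came from a piece of diaphragm of 17 male C57BL/6J mice, all 4 months old and each sequenced as bulk tissue. Control mice (n = 5) bore no tumor and received mock injections of PBS with albumin, and Control + rFibcd1 mice (n = 5) bore no tumor and received recombinant Fibcd1. LLC mice (n = 3) carried subcutaneous tumors of Lewis lung carcinoma cells in both flanks with mock injections, and LLC + rFibcd1 mice (n = 4) carried the same tumors and received rFibcd1. The injections were intraperitoneal in every group, and rFibcd1 is a C-terminal fragment of the mouse protein made in insect cells and given in the same albumin solution as the mock. Nothing in the labels names a litter, a library batch or a sequencing date, so no batch could be tested. All 10 markers of skeletal muscle fibers were above 0 in every group.

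The mitochondrial genome is a small circle that is transcribed from both strands into long precursors, from which tRNAs are cut out between the mRNAs and the rRNAs. Its mRNAs encode core subunits of respiratory complexes I, III and IV and of the ATP synthase, complex V, while all other subunits, and the whole of complex II, are made from nuclear genes and imported. In the diaphragm, which contracts throughout life and is rich in mitochondria, these mRNAs are among the most abundant of the tissue.

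The map positions and sequences of the members bear on how each could be counted, and those that the results turn on are shown here from GENCODE vM21 transcripts on GRCm38. Of the 13 mRNA genes, 12 lie on the plus strand of the reference and 1, mt-Nd6 (chrM:13552-14070), on the minus strand. The first 60 bases, written 5′ to 3′ with the start codon in capitals, show the different base use of mt-Nd6 beside 3 genes of the other strand. The position of mt-Nd6 here is chrM:14011-14070, of mt-Nd4l chrM:9877-9936, of mt-Nd5 chrM:11742-11801 and of mt-Co1 chrM:5328-5387.
mt-Nd6: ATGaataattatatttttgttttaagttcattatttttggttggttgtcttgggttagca
mt-Nd4l: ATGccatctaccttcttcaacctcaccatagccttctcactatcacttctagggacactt
mt-Nd5: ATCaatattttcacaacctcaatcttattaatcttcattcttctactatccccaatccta
mt-Co1: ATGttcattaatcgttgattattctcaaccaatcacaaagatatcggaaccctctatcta

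Over its whole length of 519 bases mt-Nd6 was 28.1% G and 5.97% C. The 12 plus-strand mRNAs held 5.88% to 16.1% G and 22.1% to 30.0% C, so mt-Nd6 lay outside the range of the others in both bases. Neighbouring members share bases. mt-Atp8 and mt-Atp6 overlap by 43 bases on the same strand (chrM:7927-7969), mt-Nd4l and mt-Nd4 by 7 bases on the same strand, and mt-Nd5 and mt-Nd6 by 14 bases on opposite strands. The shared stretch of the ATP synthase genes is given with the start codon of mt-Atp6 in capitals.
mt-Atp8 and mt-Atp6: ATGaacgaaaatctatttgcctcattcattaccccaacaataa

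In 3 members, mt-Co3, mt-Nd4 and mt-Cytb, the annotated gene ends in a single T instead of a full stop codon. Such stops are known to be completed by the A bases of the poly(A) tail, the same tail by which mRNA was selected for these libraries. How much of each member this selection captured was not measured. The last 24 bases of these 3 genes, with the incomplete stop in capitals, contrast with the full stop of mt-Co1. They lie at chrM:9367-9390, chrM:11521-11544, chrM:15265-15288 and chrM:6849-6872, all on the plus strand.
mt-Co3: tctccatttattgatgaggatctT
mt-Nd4: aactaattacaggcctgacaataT
mt-Cytb: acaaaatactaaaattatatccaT
mt-Co1: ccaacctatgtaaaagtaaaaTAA

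All 13 protein-coding genes had values above 0 in all 17 samples. The other 24 members, both rRNA genes mt-Rnr1 and mt-Rnr2 and the 22 tRNA genes, were listed at 0 in every sample. Each of the 13 is called an mRNA here, but its level is what was counted for that gene, not for a separate transcript. Whether mt-Atp8 and mt-Atp6, or mt-Nd4l and mt-Nd4, lay on a shared transcript was not tested. The table also listed at 0 all 353 symbols annotated as nuclear rRNA, all 1382 snRNA, all 1439 snoRNA and all 2146 miRNA symbols, whereas 17603 of 21048 protein-coding symbols were above 0 somewhere. The rRNA and tRNA genes therefore have no value here, and their 0 is no measure of how much of these RNAs the muscle held. A block on chromosome 1 (chr1:24611535-24616197) carries 7 annotated copies of mitochondrial genes, Gm10222, Gm28439, Gm10925, Gm28438, Gm28437, Gm28661 and Gm29216, which matched mt-Nd4l, part of mt-Nd4, mt-Atp6, mt-Nd3, mt-Co3, mt-Co2 and part of mt-Co1 at 99.7% to 100% of bases. All 7 copies were listed at 0, and how reads that fit both places were assigned is not given in the sources used here.

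The 3 mitochondrially encoded subunits of cytochrome c oxidase (complex IV), the enzyme that passes electrons to oxygen, headed the table. Averaged over the 17 samples, mt-Co1 stood at 91925 TPM (a level corrected for gene length and scaled to a fixed total), mt-Co2 at 62104 TPM and mt-Co3 at 60005 TPM. The ATP synthase subunits mt-Atp6 and mt-Atp8 averaged 49878 TPM and 33543 TPM, and mt-Cytb, the cytochrome b of complex III, 35125 TPM. The 7 complex I subunits were lower, from 32866 TPM for mt-Nd1 through 26218 for mt-Nd2, 24460 for mt-Nd4, 18366 for mt-Nd4l, 15818 for mt-Nd3 and 10241 for mt-Nd5 to 603 TPM for mt-Nd6. The 9 highest members were the 9 highest of all 47643 symbols, and mt-Nd6 ranked 132.

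The order of the levels was nearly the same in every sample. Of 12 neighbouring pairs in this order, 9 were ordered alike in 17 of 17 samples, and mt-Cytb was above mt-Atp8, and mt-Nd4l above mt-Nd3, in 16 of 17. mt-Atp8 exceeded mt-Nd1 in only 11 of 17 samples, so these 2 did not differ beyond their spread. The members also differed in how much they varied. Within groups, the coefficient of variation of mt-Co2 was 1.47% to 4.53%, that of mt-Nd5 8.12% to 13.2% and that of mt-Nd6 8.88% to 17.1%. Even so, mt-Nd6 rested on an estimated 5100 to 12947 reads in a sample, so counting error was small beside this spread.

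**Figure D1:**
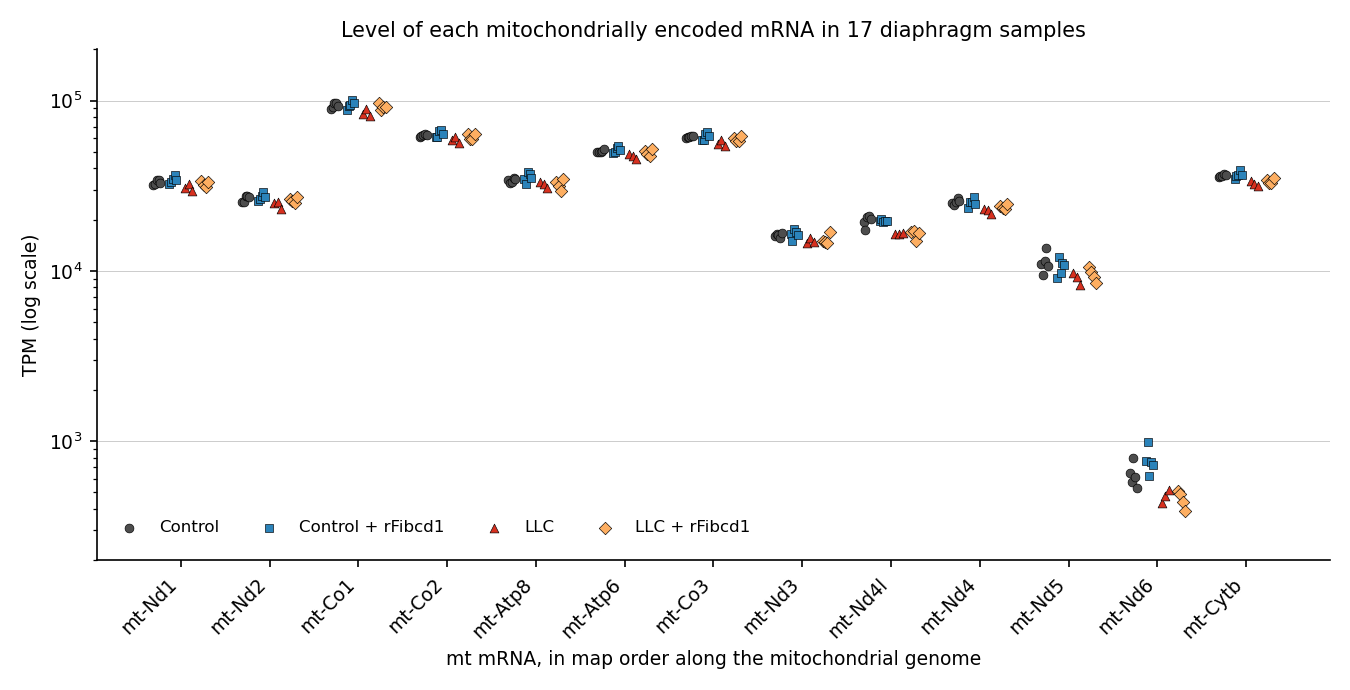
TPM (log axis) of each of the 13 mt mRNAs in each of the 17 samples, in map order, with a symbol for each group. The other 12 genes lie higher, from 8246 TPM upward, while mt-Nd6 lies between 386 and 982 TPM in all groups.

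The set as a whole made up a large share of all TPM, and its share was lower with tumors. In the Control mice the share was 46.0%, 45.9%, 47.7%, 48.4% and 47.5%, and in the LLC mice 43.2%, 44.3% and 41.3%. All 3 LLC samples lay below all 5 Control samples, with means of 42.9% ± 1.53 (SD, n = 3) and 47.1% ± 1.09 (SD, n = 5), a difference of -4.18 percentage points. In the Control + rFibcd1 mice the share was 45.4%, 46.4%, 48.6%, 50.4% and 47.9%, and in the LLC + rFibcd1 mice 46.4%, 44.2%, 43.7% and 46.5%. These groups overlapped, with means of 47.8% ± 1.93 (SD, n = 5) and 45.2% ± 1.48 (SD, n = 4). The share in LLC + rFibcd1 mice was 2.26 points above that in LLC mice, with overlap, and that in Control + rFibcd1 mice was 0.641 points above Control, also with overlap. The former was 1.43 points without LLC replicate 3, and the latter ran from -0.023 points without Control + rFibcd1 replicate 4 to 1.22 points without Control + rFibcd1 replicate 1. Since the share is a sum over genes chosen with earlier results known, it was not tested.

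**Figure D2:**
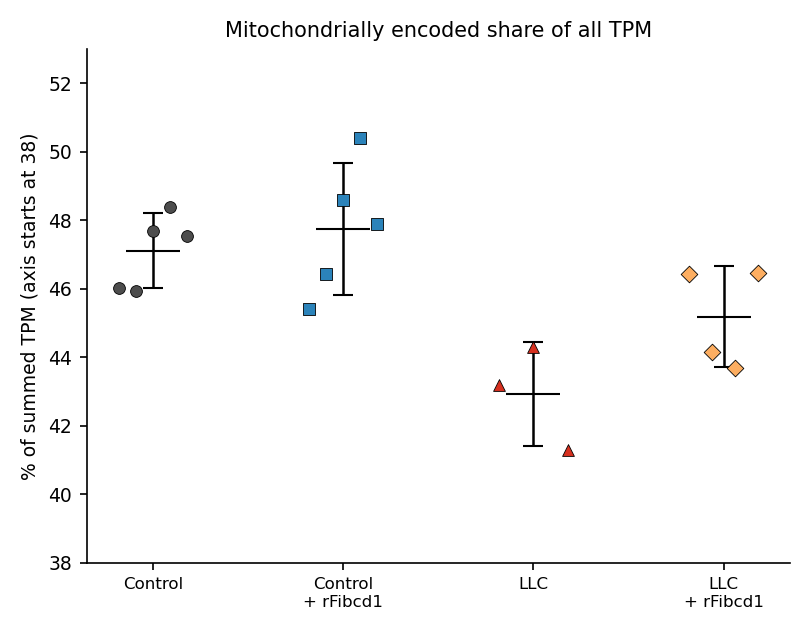
Summed TPM of the mt genes as a percentage of all TPM, 1 point per sample, with the group mean and SD as bars. The axis starts at 38%. The 3 LLC samples, at 41.3% to 44.3%, lie below the 5 Control samples, at 45.9% to 48.4%.

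Markers of the cell types that the tissue could hold were compared between the same groups, where 6.02% of all genes tested fell and 29.7% rose. The summed TPM of 10 skeletal muscle fiber markers ranged from 58648 to 63400 in Control and from 49454 to 53233 in LLC mice, and 5 of the 10 (Tnnt3, Ckm, Myh1, Mb and Ttn) fell in LLC against Control. All 8 B cell markers rose, with a summed level of 2.57 to 108 TPM in Control and 249 to 319 TPM in LLC samples, and so did all 7 T cell markers (1.57 to 16.2 against 25.6 to 43.2 TPM). Of 7 macrophage markers 4 rose, as did the 4 neutrophil markers tested of 6 and 2 of 5 endothelial markers. Of 5 erythroid markers 1 rose, so the endothelial and erythroid counts lie near the share of all genes. The summed erythroid level was 3848 to 20311 TPM in Control and 14168, 18508 and 46936 TPM in the LLC samples, the last being LLC replicate 3. Of the 5 fibroblast, 5 adipocyte and 5 mesothelial markers none passed, with positive fitted changes in all 15. Their summed levels in Control and LLC mice were 586 to 851 and 917 to 957 TPM for fibroblasts, without overlap, 584 to 1703 and 1029 to 3796 TPM for adipocytes, and 78.0 to 151 and 100.1 to 259 TPM for mesothelium, both with overlap. None of these markers was at 0 throughout a group. Their part in the lower mitochondrial share was not tested, and in bulk tissue fewer cells of a type and less RNA per cell cannot be told apart. With immunoglobulin genes left out of the total, the difference between LLC and Control was -3.50 points, and with the erythroid markers left out, a choice made after seeing the data, the share averaged 44.1% in LLC (43.3% to 45.1%) and 47.6% in Control mice (46.4% to 48.6%), again with no overlap.

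Gene by gene, part of the set was lower with tumors. Between LLC and Control, 7 of the 13 mRNAs fell at an adjusted p under 0.05, none rose, and the fitted change was negative in 13 of 13, with a median of -0.14 on the log2 scale. In that comparison 6.02% of the 13305 genes tested fell, 29.7% rose and 35.8% changed in either direction, and the median gene stood at 0.16. The 7 were 4 of the 7 complex I subunits (mt-Nd4l, mt-Nd4, mt-Nd5 and mt-Nd6), mt-Cytb of complex III, and mt-Co1 and mt-Co3 of complex IV, and neither ATP synthase subunit was among them. In 9 members every LLC sample lay below every Control sample, which held for 6.67% of all genes tested, and in none did every LLC sample lie above (33.6% of all genes).

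mt-Cytb, the subunit of complex III that carries electrons across the membrane, was at 35606, 36153, 36277, 36852 and 36698 TPM in the Control samples and at 33611, 32458 and 31400 TPM in the LLC samples. The groups did not overlap, and mt-Cytb fell by 0.16 ± 0.040 (log2, SE, adjusted p = 0.0128). mt-Nd4, a membrane subunit of the proton pump of complex I, was at 25119, 24453, 25226, 26616 and 25782 TPM in Control and 22921, 22706 and 21655 TPM in LLC mice. It again separated the groups and fell by 0.18 ± 0.045 (adjusted p = 0.0129).

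mt-Co1, the catalytic subunit of cytochrome c oxidase, was at 89660, 91183, 97222, 96948 and 92925 TPM in Control and 83129, 89528 and 81262 TPM in LLC mice, and it fell by 0.15 ± 0.052 (adjusted p = 0.0415). The highest LLC sample lay just below the lowest Control sample. mt-Co3, a structural core subunit of the same enzyme, was at 60189, 61308, 61214, 61989 and 62290 TPM in Control and 55267, 58429 and 54053 TPM in LLC mice, and it fell by 0.14 ± 0.044 (adjusted p = 0.0281). The third core subunit, mt-Co2, which receives the electrons of cytochrome c, also had no overlap but did not pass the test (-0.10 ± 0.045, adjusted p = 0.0986).

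mt-Nd5, the most distant proton-pumping subunit of complex I, was at 11031, 9507, 11456, 13530 and 10613 TPM in Control and 9695, 9172 and 8246 TPM in LLC mice. Its groups overlapped, and it fell by 0.31 ± 0.11 (adjusted p = 0.0434). The members that missed the threshold, mt-Nd1, mt-Nd2, mt-Co2, mt-Atp8, mt-Atp6 and mt-Nd3, had fitted changes of -0.12 to -0.087 and adjusted p-values of 0.0698 to 0.25. A p above the threshold does not show that these differed from the 7 that passed, and that difference was not tested.

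The count of 7 rested on few samples. It was 0 without LLC replicate 3, 3 without LLC replicate 1 or Control replicate 4, and 4 without Control replicate 3 or 5. The calls over all 13305 genes went from 4759 to 24 without LLC replicate 3, 2272 without LLC replicate 1 and 3470 without Control replicate 4. They were 3522 and 3264 without Control replicates 3 and 5. Without LLC replicate 3 the members had a median change of -0.11, and 0 were positive. The count of members was also 0 after adjustment for a B cell marker score (mean log2 level of the 8 markers), when 8 of all genes passed. It was 0 with no filter on low values, when 4904 of 22950 genes passed, and with Dunn's test, when 0 of all genes did. With TPM rescaled without the mt genes it was 5, where 1469 of 14419 genes fell. With median-ratio scaling it was 10, where 2035 of 13233 genes fell.

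**Figure D3:**
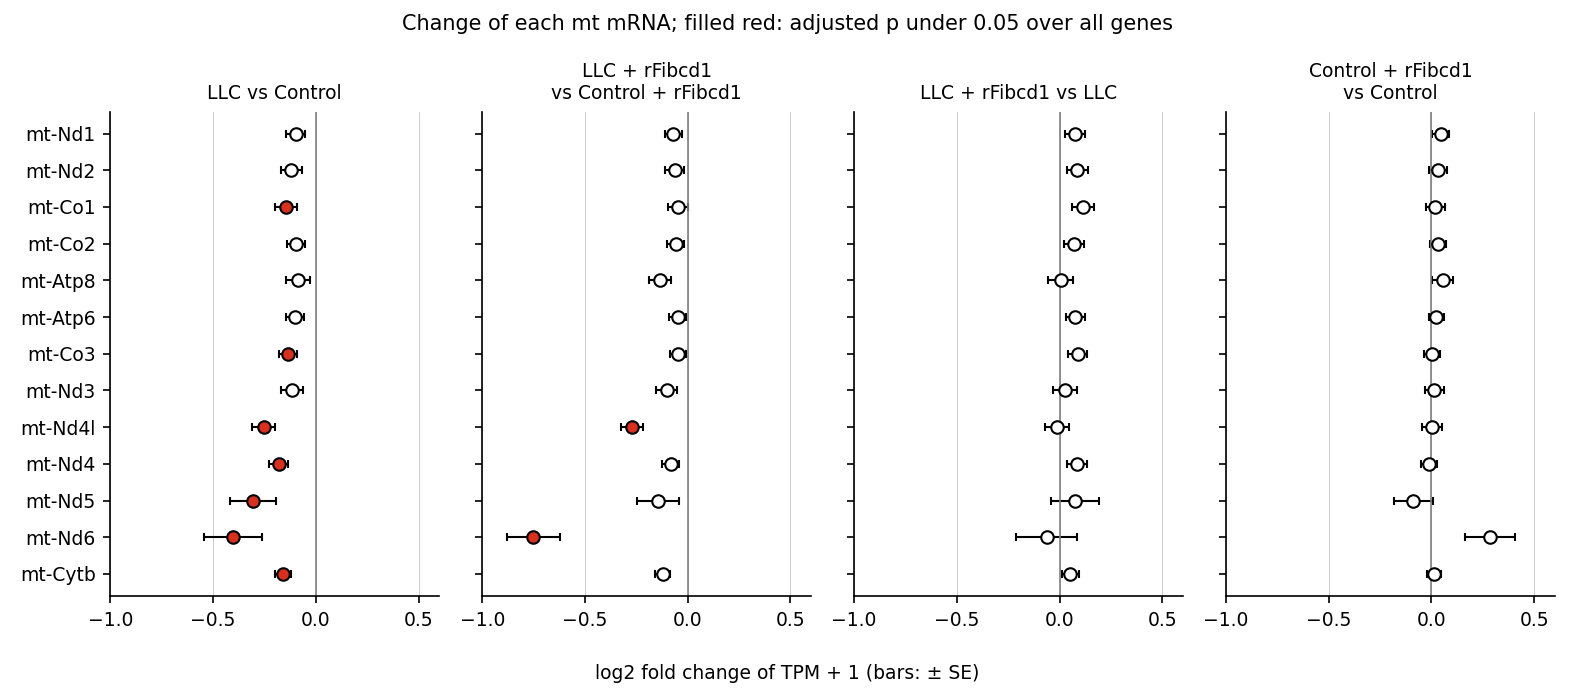
Fitted log2 fold change (TPM + 1) of each mt mRNA in 4 comparisons, with SE as bars and filled red points for an adjusted p under 0.05 over all 13305 genes. All 13 points lie left of 0 in both comparisons of tumor-bearing with tumor-free mice, with 7 and 2 filled.

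Among rFibcd1-injected mice, tumors went with lower levels counted for 2 complex I genes. mt-Nd6 and mt-Nd4l were 2 of 13 members below the threshold, against 1.04% of all genes that fell, 7.02% that rose and 8.06% that changed in either direction, and no member rose. The fitted change was negative in 13 of 13, with a median of -0.083, where the median gene stood at 0.11. The median of the members was -0.23 with median-ratio scaling and -0.15 with TPM rescaled without the mt genes. After adjustment for the B cell score it was -0.045. Both mt-Nd6 and mt-Nd4l still passed after adjustment for the B cell score, whereas mt-Nd4l did not with no filter on low values (adjusted p = 0.164), and neither did by Dunn's test (adjusted p = 0.175 and 0.238). This comparison shares no samples with LLC against Control.

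mt-Nd6, a small membrane subunit of complex I and the only mRNA of its strand, was at 650, 574, 794, 614 and 527 TPM in Control and 430, 477 and 514 TPM in LLC mice. In the Control + rFibcd1 mice it was at 767, 982, 623, 758 and 723 TPM, and in the LLC + rFibcd1 mice at 511, 486, 436 and 386 TPM. All 7 tumor-bearing samples lay below all 10 tumor-free samples, as for 0.526% of all genes tested, while 1.74% lay above. In the rFibcd1-injected groups such a separation was found for mt-Nd6 and mt-Nd4l among the members, and for 1.48% of all genes in that direction and 7.43% in the other. mt-Nd6 fell by 0.75 ± 0.13 in LLC + rFibcd1 against Control + rFibcd1 (log2, SE, adjusted p = 0.00408) and by 0.40 ± 0.14 in LLC against Control (adjusted p = 0.0383), and the difference between these changes did not pass its test (-0.35 ± 0.19, unadjusted p = 0.0908, adjusted p = 0.652). The labels name a stranded library kit and the methods of the study a kit that does not mark strand, and whether the counting used the strand is not given in the sources used here. Reads of mt-Nd6 and reads of the opposite strand across the same bases therefore cannot be told apart with certainty. How much of the mt-Nd6 mRNA the poly(A) selection captured was not measured either, so its level depends on that capture as well.

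mt-Nd4l, a small membrane subunit of complex I, was at 19476, 17301, 20720, 20880 and 20238 TPM in Control and 16434, 16458 and 16620 TPM in LLC mice. In the Control + rFibcd1 mice it was at 19671, 20120, 19459, 19659 and 19679 TPM, and in the LLC + rFibcd1 mice at 16859, 17035, 14908 and 16708 TPM. The tumor-bearing samples again all lay below the tumor-free ones, which held for mt-Nd6 and mt-Nd4l alone among the members and for the same 0.526% of all genes, the nearest being 17035 and 17301 TPM. It fell by 0.27 ± 0.053 among the rFibcd1-injected mice (adjusted p = 0.00776) and by 0.25 ± 0.057 among the mock-injected mice (adjusted p = 0.0111). mt-Nd4l is 297 bases long, overlaps mt-Nd4, and is copied in full, except for its last bases, by Gm10222. In the same limma fit mt-Nd4 changed by -0.083 ± 0.042 among the rFibcd1-injected mice (adjusted p = 0.202). Among the mock-injected mice it changed by -0.18 ± 0.045 (adjusted p = 0.0129).

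**Figure D4:**
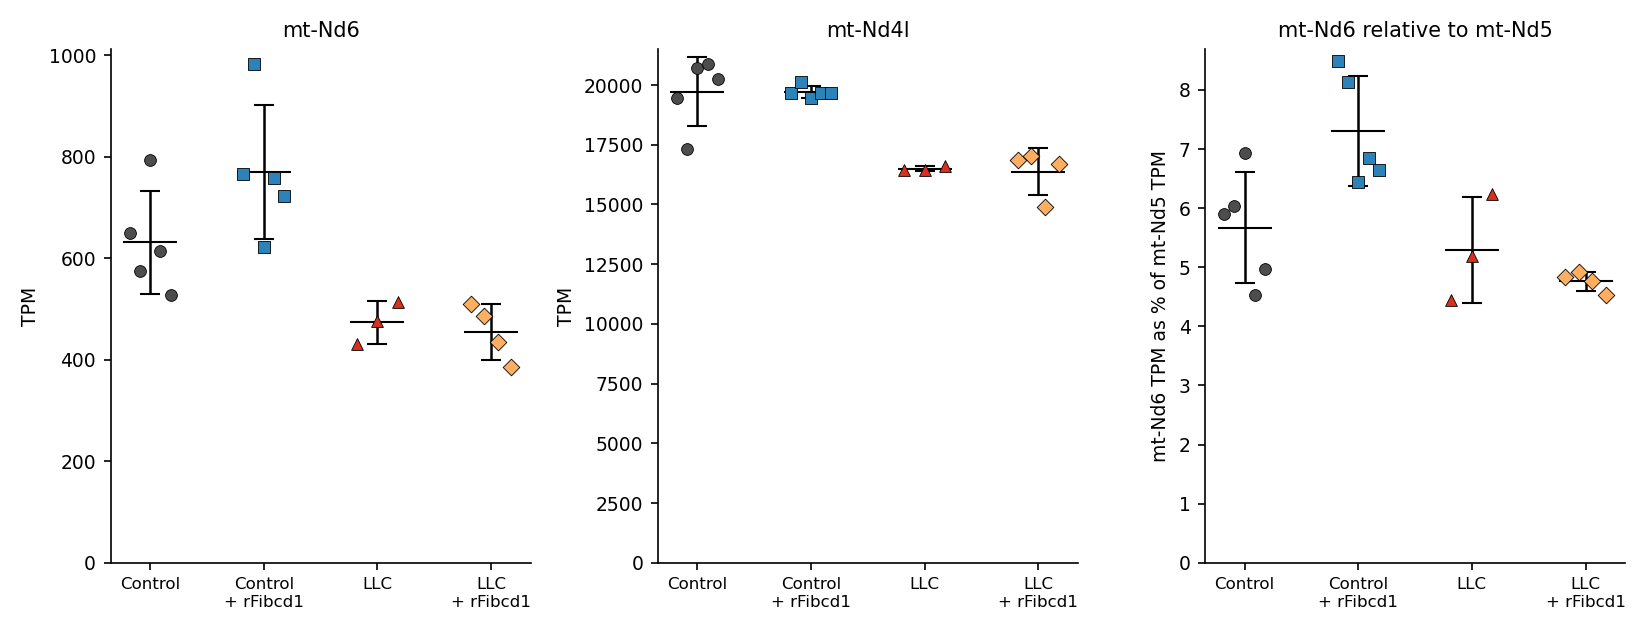
TPM of mt-Nd6, TPM of mt-Nd4l, and mt-Nd6 as a percentage of mt-Nd5, 1 point per sample with the group mean and SD as bars. For both genes the 7 tumor-bearing samples lie below the 10 tumor-free samples.

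The members were also tested relative to the mitochondrial total. When the TPM of each sample were divided by its mitochondrial total, no member passed in LLC against Control (2 had an unadjusted p under 0.05, with limma), where 1.63% of the 13367 genes tested fell and 48.7% changed in either direction. In LLC + rFibcd1 against Control + rFibcd1, mt-Nd6 fell by 0.67 ± 0.14 (adjusted p = 0.00896) and mt-Nd4l by 0.19 ± 0.048 (adjusted p = 0.0211) on this scale, where 0.554% of genes fell and 13% changed in either direction. In LLC + rFibcd1 against LLC 0 members passed on this scale, where 0.0673% of genes changed. Complex IV mRNAs took 46.2% ± 0.382, 46.2% ± 0.273, 46.4% ± 0.735 and 47.1% ± 0.649 of the mitochondrial total in Control, Control + rFibcd1, LLC and LLC + rFibcd1 mice (SD, n = 5, 5, 3 and 4). Complex I mRNAs took 28.2% ± 0.479, 28.0% ± 0.373, 27.7% ± 0.0619 and 27.4% ± 0.359 in the same order. The shares of complexes III and V were 7.46% to 7.71% and 17.9% to 18.4% as group means. The groups overlapped in the shares of complexes I, IV and V in all 4 comparisons. In that of complex III, which is mt-Cytb alone, the LLC + rFibcd1 samples (7.34% to 7.52%) lay below the Control + rFibcd1 samples (7.55% to 7.79%), and the other comparisons overlapped.

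A ratio of 2 genes within a sample does not depend on how TPM were scaled. mt-Nd6 and mt-Nd5 lie end to end on opposite strands, and mt-Nd6 amounted to 5.89%, 6.04%, 6.93%, 4.54% and 4.96% of mt-Nd5 in Control and 8.48%, 8.14%, 6.44%, 6.85% and 6.65% in Control + rFibcd1 mice. It amounted to 4.44%, 5.20% and 6.24% in LLC and 4.83%, 4.91%, 4.76% and 4.54% in LLC + rFibcd1 mice. The Control + rFibcd1 mice were thus the highest group, above all LLC + rFibcd1 samples and overlapping Control. The ratio differed by -0.61 (log2) between LLC + rFibcd1 and Control + rFibcd1 (exact permutation test, two-sided, p = 0.00794, adjusted p = 0.0635 over 8 tests), where 0.00794 is the smallest p these group sizes allow. It differed by 0.37 between Control + rFibcd1 and Control (exact p = 0.0317, adjusted p = 0.0847), by -0.099 between LLC and Control (exact p = 0.625) and by -0.14 between LLC + rFibcd1 and LLC (exact p = 0.314). The last of these was -0.26 without LLC replicate 1 and -0.013 without LLC replicate 3. With a replicate left out, the difference between LLC and Control ran from -0.22 to 0.021. The ratio of mt-Cytb, at the far end of the plus-strand transcript, to mt-Co1 differed by at most 0.072 (log2) in size in the 4 comparisons, with exact adjusted p-values of 0.0847 or more.

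rFibcd1 changed no member at the threshold, with or without tumors. In LLC + rFibcd1 against LLC, 0 of 13 members passed in the limma test and 0 had an unadjusted p under 0.05, where 0.113% of all genes passed. The fitted changes were positive in 11 of 13, from -0.063 for mt-Nd6 to 0.12 for mt-Co1, with a median of 0.074 against -0.11 for the median gene. mt-Atp8 and mt-Nd3, among the 11, turned negative after adjustment for the B cell score (-0.060 and -0.015). The median of the members was 0.039 without LLC replicate 3, 0.020 after that adjustment and 0.22 with median-ratio scaling. mt-Nd4, at 22921, 22706 and 21655 TPM in LLC and 23897, 23351, 23119 and 24842 TPM in LLC + rFibcd1 mice, was the only member whose groups did not overlap, as for 5.26% of all genes in that direction and 9.3% in the other (0.086 ± 0.048, adjusted p = 0.262). mt-Nd6 and mt-Nd4l had changes of -0.063 ± 0.15 and -0.013 ± 0.060.

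In Control + rFibcd1 against Control, 0 of 13 members passed in the limma test, as did 0% of all genes, and 1 member had an unadjusted p under 0.05. This was mt-Nd6, with a change of 0.28 ± 0.12 (unadjusted p = 0.0351, adjusted p = 0.927). The other 12 members had changes of -0.089 to 0.055. No member separated these groups, a pattern found for 0.804% of all genes downward and 0.00752% upward. For the test of whether rFibcd1 acted differently with and without tumors, 0 of 13 members and 0% of all genes passed, and 0 members had an unadjusted p under 0.05.

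Lists of nuclear-encoded partners of these subunits give the other side of each complex, not always in full. The lists were chosen with earlier results of these data known. In LLC against Control all 10 nuclear complex I genes on the list fell, as did 9 of 9 of complex III, 7 of 11 of complex IV and 10 of 12 of complex V, with medians of -0.23, -0.24, -0.17 and -0.24 (log2), and no gene of these lists rose, where 6.02% of all genes tested fell and 29.7% rose. All 4 genes of complex II, which has no mitochondrially encoded subunit, fell as well (median -0.23). Ndufs1, an iron-sulfur subunit of complex I, fell by 0.36 ± 0.060 (adjusted p = 0.00734), Uqcrc1, a core protein of complex III, by 0.28 ± 0.049 (adjusted p = 0.00803), Cox7a1, the muscle form of a small complex IV subunit, by 0.38 ± 0.052 (adjusted p = 0.00460), and Atp5g3, which encodes the membrane ring of the ATP synthase, by 0.29 ± 0.045 (adjusted p = 0.00723). Sdhb, the iron-sulfur subunit of complex II, fell by 0.31 ± 0.050 (adjusted p = 0.00734). None of the 46 genes of these lists passed in the other comparisons.

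The summed TPM of the 13 mt mRNAs, divided by that of the 42 listed nuclear genes of complexes I, III, IV and V, was 13.8, 13.9, 14.0, 14.3 and 13.5 in Control and 14.5, 14.4 and 15.1 in LLC mice. It was 14.3, 14.7, 14.1, 14.8 and 14.0 in Control + rFibcd1 and 13.4, 13.5, 13.1 and 13.7 in LLC + rFibcd1 mice. The LLC samples lay above all Control samples, by 0.813 on average, whereas the LLC + rFibcd1 samples lay below all Control + rFibcd1 samples, by 0.946, and below all LLC samples, by 1.23. The nuclear sum was 33990 ± 861 TPM in Control, 33189 ± 1414 in Control + rFibcd1, 29281 ± 1771 in LLC and 33601 ± 830 in LLC + rFibcd1 mice (SD, n = 5, 5, 3 and 4), so the LLC group had the lowest nuclear as well as the lowest mitochondrial sum. Taken complex by complex, the ratio was also higher in LLC than in Control and lower in LLC + rFibcd1 than in LLC on average. For complex IV it averaged 15.1 ± 0.499 in Control, 15.9 ± 0.428 in LLC and 14.3 ± 0.110 in LLC + rFibcd1 mice. As sums over chosen genes these ratios were not tested.

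**Figure D5:**
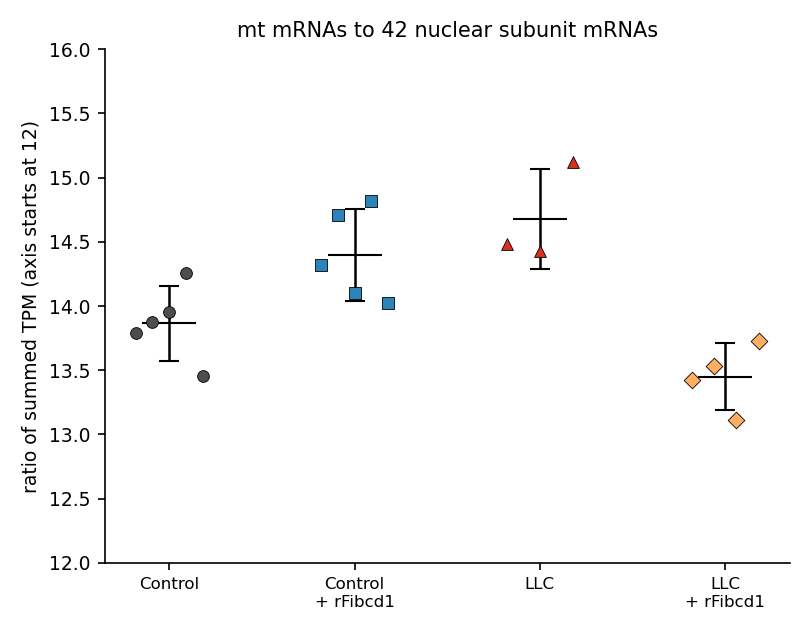
Summed TPM of the 13 mt mRNAs divided by the summed TPM of 42 nuclear genes of complexes I, III, IV and V, 1 point per sample, with the group mean and SD as bars. The axis starts at 12. LLC samples lie above Control samples, and LLC + rFibcd1 samples lie below Control + rFibcd1 and LLC samples.

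The nuclear genes that transcribe and process mitochondrial RNA changed in both directions in LLC against Control. Of 10 transcription genes, 4 fell and 2 rose, beside 6.02% and 29.7% of all genes tested. Tefm, the elongation factor of the mitochondrial polymerase, fell by 0.21 ± 0.060 (adjusted p = 0.0191), Tfam, which packages the genome and starts transcription, had a change of -0.17 (adjusted p = 0.0272), and Tfb2m, an initiation factor, -0.16 (adjusted p = 0.0241). Mterf2 fell by 0.33 ± 0.090 (adjusted p = 0.0161), while Mterf1b, a copy of the termination factor gene, rose by 0.38 ± 0.11 (adjusted p = 0.0175). Mterf1a, which is closely similar in sequence to Mterf1b, rose as well, so the reads of these 2 could be divided between them in either way.

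Of 19 genes for mitochondrial RNA processing and stability, 3 fell and 1 rose in the same comparison, against the same 6.02% and 29.7% of all genes. Lrpprc, which stabilizes mitochondrial mRNAs and promotes their polyadenylation, fell by 0.26 ± 0.058 (adjusted p = 0.0108), and Fastk, whose mitochondrial form is needed for mt-Nd6 mRNA, by 0.13 ± 0.047 (adjusted p = 0.0415). Grsf1, an RNA granule protein that binds G-rich RNA, had a change of -0.14 (adjusted p = 0.0472), and Rexo2, a nuclease of short RNA fragments, rose by 0.37 ± 0.096 (adjusted p = 0.0137). Of 11 genes for maintenance of the genome 3 rose and none fell, a share of rises close to that of all genes (29.7%). The 3 were Rnaseh1, which removes RNA from DNA hybrids (0.28 ± 0.049, adjusted p = 0.00734), Primpol, a primase (0.56 ± 0.13, adjusted p = 0.0112), and Tk2, which supplies DNA precursors (0.69 ± 0.19, adjusted p = 0.0161).

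These nuclear calls shared the limits of the comparison. Of all 13305 genes tested, 801 fell with all samples and 9 without LLC replicate 3. After adjustment for the B cell score 1 fell, and by Dunn's test 0. Of the 46 nuclear subunit genes, 40 fell with all samples, 1 without LLC replicate 3, and 0 after adjustment for the B cell score or by Dunn's test. The fitted changes stayed negative in 46 of 46 without that sample and in 45 of 46 after the adjustment, and their median moved from -0.22 to -0.17 and -0.16. Cox7a1 and Ndufs1, for example, were at -0.31 each after the adjustment (adjusted p = 0.0829 and 0.165). Of the 40 genes on the other 3 lists, 7 fell and 6 rose with all samples, and none passed in any of those alternatives. With median-ratio scaling 45 of the 46 fell (median -0.43), and of the 40 genes 17 fell and 2 rose. Of all 13233 genes tested on that scaling, 2035 fell and 1887 rose. Among the genes named above, the rises of Rnaseh1 (0.093, adjusted p = 0.223), Rexo2 (0.17, adjusted p = 0.0730) and Mterf1b (0.25, adjusted p = 0.0631) did not pass on that scaling, and neither did that of Mterf1a. None of the genes on the 3 lists passed in the comparisons that involve rFibcd1. Among rFibcd1-injected mice, Tefm, Lrpprc and Fastk had changes of -0.11 ± 0.055, -0.12 ± 0.053 and -0.021 ± 0.043 with tumors (adjusted p = 0.195, 0.154 and 0.764). In that comparison, where 1.04% of all genes fell and 7.02% rose, 2 of 10 muscle fiber markers fell (Ckm and Tnnt3), 4 of 5 endothelial markers and all 4 neutrophil markers tested of 6 rose, and 0 of 8 B cell markers passed. Apart from the B cell score, the part of these markers in the lower mt-Nd6 and mt-Nd4l was not tested.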

How the data were processed

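The mitochondrially encoded mRNAs were measured by poly(A)-selected RNA-seq of 17 diaphragm samples. The deposited values are TPM, which the authors made in CLC Genomics Workbench by aligning reads to GRCm38 (mm10) and dividing gene counts by length, so each sample sums to the same total. The labels name a stranded mRNA kit and the methods of the study a kit that does not mark strand. The annotation release, and whether counting used the strand, are not given in the sources used here. Every column was matched to its sample by title.

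Groups and replicate numbers came from the sample titles, 1 mouse per sample as far as the labels tell. Genes at 1 TPM or more in at least 3 samples (13305 genes) were tested on log2(TPM + 1) with limma 3.58.1 in R 4.3.3, all 4 groups in 1 model with 13 residual degrees of freedom, an expression trend, two-sided tests and Benjamini-Hochberg adjustment over all genes at 0.05. Fold changes are on this log2 scale and understate changes of low genes. The study itself used Kruskal-Wallis and Dunn tests, which were run as an alternative. A second fit divided TPM by the mitochondrial total of the sample. Ratios of 2 members used exact permutation tests (SciPy 1.17.1), 8 tests in all, since the rRNA genes at 0 left 2 of 4 planned ratios without values. The planned naming of tRNA genes and of nuclear copies gave none for the same reason.

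Depth was estimated from steps of 1 read in low TPM values with GENCODE vM21 gene lengths (82.7% to 85.7% of low values within 0.02 of a whole read, 4% by chance): 50.7 to 54.5 reads per sample in units of 1000000, of which 9.37 to 12.7 mapped to the set. Depth entered no test. The limma script was tested on simulated data. Nuclear copies were matched with BLAST+ 2.17.0. Alternatives were another pseudocount, no filter, other scalings, totals without immunoglobulin genes or erythroid markers, a B cell covariate, fewer groups, a replicate block, Dunn's test and leaving out each replicate.

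Members and gene lists were chosen with earlier results of these data known. Named were all 13 mRNAs and both rRNAs. Of each list for transcription, processing or maintenance, the 3 genes with the lowest adjusted p in LLC against Control (limma) were named. The same number was planned for each list of respiratory subunits, but fewer of them are named here. Tfam, Tfb2m, Mterf1a, Grsf1 and the markers named were chosen after their values were seen.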

Additional observations from a re-analysis of the deposited data

Results flagged for a closer look

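Each of 84 sets of values (a member's TPM, its share of the mitochondrial total, the mt share of all TPM or the ratio of mt to nuclear subunit mRNA, each in 1 group of 4 or 5 samples) was searched for a sample far from the rest, and 4 held one, where chance alone gives about 1 in 20. mt-Atp6 was at 52076 TPM in Control replicate 5 and at 49790 to 50451 TPM in the other 4. mt-Co3 took 12.6% of the mitochondrial total in Control + rFibcd1 replicate 2 and 12.9% or more in the others. mt-Nd4l was at 14908 TPM in LLC + rFibcd1 replicate 3 and at 16708 to 17035 TPM in the others, and took 3.77% of the mitochondrial total in Control replicate 2 against 4.23% to 4.35% in the others.

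The ratio of summed mt mRNA to 42 nuclear subunit mRNAs moved in opposite directions under the same contrast. Tumors went with a difference of 0.813 in mock-injected mice and of -0.946 in rFibcd1-injected mice. rFibcd1 went with a difference of -1.23 in tumor-bearing mice and of 0.529 in tumor-free mice. Whether these differences differ from each other was not tested.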

How the results depend on the processing

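Without LLC replicate 3, 24 of all 13305 genes were called in LLC against Control, beside 4759 with all samples, and the members had a median change of -0.11. The number of mt mRNAs called in LLC against Control (7) was 0 in that fit, and 0 to 7 when each replicate was left out in turn. It was also 0 with no filter on low values (22950 genes, 4904 called) and after adjustment for the B cell score (8 of all genes called). By Dunn's test it was 0 as well (0 of all genes, 9 members at an unadjusted p under 0.05). For LLC + rFibcd1 against Control + rFibcd1 (2) it was 1 with no filter and 0 by Dunn's test (4 at an unadjusted p under 0.05). The cause was not tested. mt-Nd6 stayed called there in 7 of 8 alternatives and mt-Nd4l in 6 of 8, and both in 17 of 17 fits with a sample left out. Scaling moved the split of all genes called in LLC against Control from 3958 higher and 801 lower to 2624 and 1469 without the mt genes and 1887 and 2035 with median-ratio scaling, and the median gene from 0.16 to 0.081 and -0.014. The members stayed negative in both, and their median went from -0.14 to -0.25 and -0.34, and to -0.072 after adjustment for the B cell score.

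The mt share in LLC against Control differed by -2.14 points as a share of estimated reads (18.9% against 21.1%), an alternative chosen after seeing the data. Relative to Control this is -10.1%, beside -8.88% for the share of TPM. With a replicate left out, the share of TPM differed in Control + rFibcd1 against Control by -0.023 to 1.22 points, and in LLC + rFibcd1 against LLC by 1.43 to 2.94 points. Among the values printed, opposite signs were found for mt-Atp8 in LLC against Control after adjustment for the B cell score (0.0088), and in LLC + rFibcd1 against LLC for mt-Nd4l (0.13 with median-ratio scaling, 0.045 without the mt genes, -0.033 to 0.031 with a replicate left out) and mt-Nd6 (0.080 with median-ratio scaling, -0.13 to 0.012 with a replicate left out). In that comparison mt-Atp8 was also negative in 2 of 8 alternatives and 3 of 17 fits with a sample left out, and mt-Nd3 in 1 of 8 and 1 of 17. With a replicate left out, the log2 ratio of mt-Nd6 to mt-Nd5 differed by -0.22 to 0.021 in LLC against Control and by 0.30 to 0.45 in Control + rFibcd1 against Control (exact adjusted p = 0.0317 without Control replicate 3) and by -0.26 to -0.013 in LLC + rFibcd1 against LLC, and that of mt-Cytb to mt-Co1 by -0.053 to 0.026 and -0.020 to 0.0022. The ratio of mt to nuclear subunit mRNA kept its sign in all 4 comparisons with any 1 replicate left out, which was also run after seeing the data.

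With a replicate block, 0 members were called in LLC against Control (5 of all genes) and 2 in LLC + rFibcd1 against Control + rFibcd1. Samples with the same number did not deviate together (correlations of -0.459 to 0.485 over 22 pairs, 4 of them over 0.1), so the numbers do not pair the samples.

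For the members, at an estimated 5100 reads or more per sample, counting error was small beside the spread between the 3 to 5 mice of a group. For genes of low level this was not assessed. p-values measure the spread between the samples deposited.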
